A study of Mus musculus with 26 samples.

Results

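CCT, also called TRiC, is the cytosolic chaperonin of eukaryotic cells, and its subunits are encoded by Cct2, Cct3, Cct4, Cct5, Cct6a, Cct7, Cct8 and Tcp1. These 8 genes were selected on measured values of the same data, namely polysome minus total mRNA per tumour by batch and size class, so that for the members this difference is given as a description, with no p. Of the 19549 gene rows of the deposited count tables, 6 carry the name of a member on its own. Cct8 was counted together with Usp16, a deubiquitinase gene, and Tcp1 together with Acat3, an acetyl-CoA acetyltransferase gene. The reads of these 2 joined rows cannot be divided, so they are given beside the 6 rows and kept out of every count of members.

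The series profiled macrophages sorted from 13 mouse mammary tumours, each tumour giving a polysome library and a total mRNA library. PyMT cells, mammary tumour cells named for the polyoma middle T antigen that drives them, had been placed in a mammary gland of FVB females aged 5 to 7 weeks, and the labels name no further allele or treatment for any group. CD11b+ F4/80+ Ly6G- cells were sorted and kept in cycloheximide, which holds ribosomes on mRNA. Of each sorted sample about 10% was used for total mRNA, and the remainder was separated by sucrose gradient, and the mRNA with at least 3 ribosomes was pooled. The 26 libraries are those of polysomes of large tumours (n = 5), polysomes of small tumours (n = 8), total mRNA of large tumours (n = 5) and total mRNA of small tumours (n = 8). Large tumours weighed 1504 to 2245 mg and small tumours 467 to 841.8 mg. The labels name 2 experimental batches, with 2 large and 5 small tumours in batch 1 and 3 large (LR1 to LR3) and 3 small (ER1 to ER3) in batch 2. The model is a transplanted tumour, so the macrophages are those of the FVB host.

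CCT is built of a pair of stacked rings, each made of all the subunits, and it folds proteins inside a closed chamber in cycles of ATP hydrolysis. Actins and tubulins are its best known clients, and macrophages depend on both for movement and for engulfing particles. Work in yeast places the ATP-driven side of the ring at the subunits encoded by Tcp1, Cct2, Cct4 and Cct5, while those of Cct3, Cct6a, Cct7 and Cct8 bind ATP weakly.

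Depth was 7034173 to 28257436 counts in polysome libraries and 18018519 to 55609113 in total mRNA libraries. Member rows held 55 to 5269 counts in polysome libraries and 2445 to 47921 in total mRNA libraries, so that the lowest values, those of Cct6a in the polysomes of tumour T15, rest on the fewest reads. The 9 macrophage markers summed to 2420 to 29700 CPM (counts scaled to the size of the library) in polysome libraries and 7870 to 56200 CPM in total mRNA libraries, and none of the 9 was at 0 in any group. Markers of mammary epithelium and tumour cells reached at most 873 CPM in polysomes and 3860 CPM in total mRNA, and those of fibroblasts at most 1840 CPM in polysomes and 2490 CPM in total mRNA. In a bulk library, fewer cells of a type and less RNA per cell cannot be told apart.

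The total mRNA libraries of tumours ER1, ER2 and LR1 stood apart from the rest. Over the 8004 genes that averaged 10 CPM or more, the median correlation of their log2 CPM with the other total mRNA libraries was 0.746, 0.604 and 0.773, against 0.799 for ER3 and 0.878 to 0.922 for the remaining 9. Cct5 had 579, 961 and 700 CPM there, against 203 to 426 CPM in the other 10 total mRNA libraries. In polysomes, ER2 again had the lowest median correlation, 0.604, and the other libraries had 0.717 to 0.816. Some results below, among them the members' folds of polysome over total mRNA, are therefore also given without these 3 tumours. This choice was made after these values had been seen.

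The transcript starts of the members are shown because mRNAs of the translation machinery that share translational control often open with a C and a run of pyrimidines. RefSeq gene starts on build GRCm38.p6 matched 7 of the 8 members. The first 30 bases from each start are given 5′ to 3′, with the longest run of pyrimidines in capitals.
Tcp1: cggcgttttcagTTTTTCgccccgcccagc
Cct2: acgcaggaggcggaaaCCCgtgcgtccggc
Cct5: ctgttgaaaagtaagtcgcggggTCTgcac
Cct3: tgtcattcctgaggaggcagcgTTTTCTTC
Cct6a: gggcgggccgggtgcgtaagaCTTTTCgag
Cct7: gcggggttgcgcgggatccacggCTCTCCT
Cct8: ttcccagcaggcagtgcgcggcgCCCCTTg
These windows lie at chr17:12916329-12916358 on the plus strand for Tcp1, chr10:117063823-117063852 on the minus strand for Cct2, chr15:31601817-31601846 on the minus strand for Cct5, chr3:88297135-88297164 on the plus strand for Cct3, chr5:129787356-129787385 on the plus strand for Cct6a, chr6:85451505-85451534 on the plus strand for Cct7 and chr16:87495840-87495869 on the minus strand for Cct8. A C followed directly by 4 pyrimidines at the first base was found in 0 of the 7 windows, read on the transcript strand, and in 2.51% of 32851 RefSeq windows of the same length. The longest run within the window was 8 bases in Cct3, 7 in Cct7, 6 in Tcp1, Cct6a and Cct8, and 3 in Cct2 and Cct5, against a median of 4 over all windows.

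Coding lengths were alike, at 1608 bases in Cct2 to 1671 bases in Tcp1, longer than those of 59.2% and 61.2% of 11091 genes. For Cct6a, 0 of the 7 transcripts of the GENCODE annotation used have a coding region, so its coding length is not given. The 5′ untranslated region of Cct7 measured 608 bases, longer than that of 94.5% of genes, and those of the other annotated members measured 85 (Cct8) to 235 (Cct4) bases. The 3′ untranslated regions ran from 128 bases in Cct5 to 662 bases in Cct8, all below the median of 983 bases.

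Per kilobase of transcript, taken as the principal transcript or, for Cct6a, which has none marked, the longest one, Cct5 had the highest total mRNA level of the 6 rows in each of the 7 batch 1 tumours and in 5 of the 6 batch 2 tumours, with Cct2 highest in LR3. Total mRNA levels in batch 1 averaged 186 ± 32.2 CPM per kb for Cct5, 117 ± 19.6 for Cct3, 115 ± 22.2 for Cct4, 96.4 ± 16.5 for Cct7, 86.1 ± 13.0 for Cct6a and 73.3 ± 8.81 for Cct2 (SD, n = 7). Neighbours in this order differed by less than the larger of their SDs, except Cct5 and Cct3. The highest row exceeded the lowest by 1.92 to 3.29 times in the total mRNA of a batch 1 tumour. In batch 2 this ratio was 8.5 in ER1, 16.5 in ER2 and 10.1 in LR1, and 2.27 to 3.72 in the other 3 tumours. The order below Cct5 depended on the length used. Per kilobase of the union of all exons, an alternative added after the data were seen, batch 1 total mRNA averaged 125 ± 21.6 CPM for Cct5, 68.2 ± 13.1 for Cct4, 58.4 ± 8.82 for Cct6a, 56.1 ± 6.75 for Cct2, 36.4 ± 6.09 for Cct3 and 34.7 ± 5.96 for Cct7. Cct7 was then the lowest row in 6 of the 7 tumours, where Cct2 had been, and the ratio of highest to lowest row was 3.35 to 3.84.

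Polysome mRNA spread the subunits further apart than total mRNA in batch 1. Per kilobase, the highest row exceeded the lowest by 5.44 to 20.2 times in the polysomes of batch 1 and by 2.7 to 5.22 times in those of batch 2. Cct4 was the lowest row in 4 of the 7 batch 1 polysome libraries and Cct6a in the other 3. Batch 1 polysome levels averaged 6.17 ± 1.29 CPM per kb for Cct4 and 11.1 ± 6.36 for Cct6a, against 50.4 ± 38.6 for Cct7 and 33.9 ± 5.91 for Cct5 (SD, n = 7). With the union of all exons as the length, Cct5 was highest in 6 of the 7, where Cct7 had been highest in 5, Cct3 was lowest in 2 of them, and the ratios ran from 4.62 to 14.1 for batch 1 libraries and from 3.02 to 5.89 for those of batch 2.

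The members were lower in polysomes than in total mRNA in nearly every tumour. Of all 6 rows in 13 tumours, the exceptions were Cct2 and Cct3 in ER1, Cct6a in ER2 and Cct7 in T22. In the fit over all tumours 6 of the 6 rows and both joined rows were called lower and 0 were called higher, where 34.3% and 22.9% of the 12109 genes tested were called in these directions. In batch 1 alone 6 of 6 were called lower, where 32.7% of genes were, and in batch 2 alone 4 of 6, where 12.7% were. The rule used this contrast, so nothing is read from these counts.

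**Figure D1:**
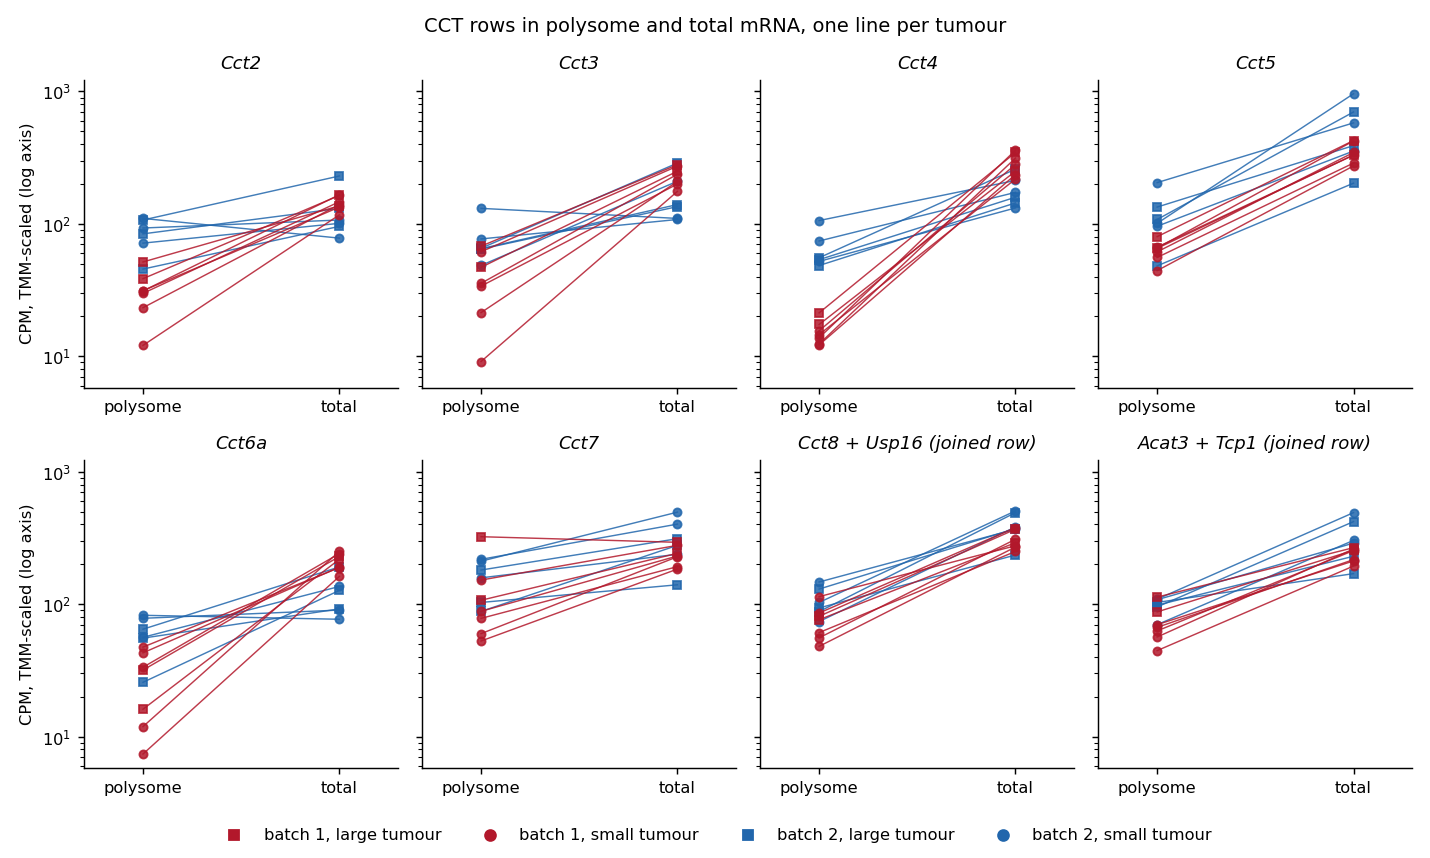
TMM-scaled CPM on a log axis in polysome and total mRNA, with 1 line per tumour, for the 6 CCT rows and the 2 joined rows. Nearly all lines go up from polysome to total, most steeply for Cct4 in batch 1 (red), whose polysome levels lie between 12.2 and 21.3 CPM.

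Among the subunits of the ATP-driven side, Cct2, the beta subunit, had 12.1, 31.2 and 51.6 CPM (lowest, median and highest) in the polysomes of batch 1, against 117, 140 and 166 CPM in total mRNA. The batch 2 polysomes held 45.6, 88.6 and 110 CPM, against 78.1, 104 and 230 CPM in total mRNA. The groups did not overlap in batch 1 and overlapped in batch 2, where ER1 had 110 CPM in polysomes and 78.1 CPM in total mRNA. Its fitted log2 fold of polysome over total mRNA was −1.51 ± 0.19 (SE) over all tumours, −2.27 ± 0.23 in batch 1 and −0.52 ± 0.32 in batch 2. Without ER1, ER2 and LR1 it was −1.79.

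Cct4, the delta subunit, had 12.2, 14.6 and 21.3 CPM in the polysomes of batch 1, against 218, 281 and 360 CPM in total mRNA. In batch 2 it had 48.5, 54.6 and 106 CPM in polysomes, against 132, 166 and 259 CPM in total mRNA. No polysome library of either batch reached the level of any total mRNA library, and the batch 1 polysome levels were also all below those of batch 2. How many of all genes had such a gap between the batches in polysomes was not counted. The log2 fold was −2.99 ± 0.18, the lowest of the 6 rows, with −4.19 ± 0.22 in batch 1 and −1.5 ± 0.30 in batch 2. Without the 3 tumours it was −3.43. Over all tumours, 0.962% of the 8004 genes had a lower mean difference of polysome and total mRNA than Cct4, and in batch 1 alone 0.6% had.

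Cct5, the epsilon subunit, had a fold of like size in both batches. There were 44.4, 65.4 and 80.1 CPM in the polysomes of batch 1, against 274, 331 and 426 CPM in total mRNA. Batch 2 held 48.2, 105 and 205 CPM in polysomes, against 203, 485 and 961 CPM in total mRNA. The groups were separate in batch 1 and just overlapped in batch 2, where the polysomes of ER1 had 205 CPM and the total mRNA of LR3 203 CPM. Each tumour was lower in polysomes, with log2 differences of −3.24 to −1.5 in batch 2 and within the narrow range of −2.68 to −2.31 in batch 1. Its log2 fold was −2.35 ± 0.18, with −2.44 ± 0.18 in batch 1 and −2.16 ± 0.34 in batch 2, and −2.23 without the 3 tumours. In batch 2 it was the member with the lowest fold, where Cct4 was in batch 1.

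The joined row of Tcp1 and Acat3 includes the alpha subunit. It had 44.6, 66.8 and 113 CPM in the polysomes of batch 1, against 194, 254 and 267 CPM in total mRNA, and 70, 101 and 109 CPM in those of batch 2, against 170, 296 and 491 CPM. The groups did not overlap in either batch. Its log2 fold was −1.74 ± 0.18, with −1.75 ± 0.20 in batch 1 and −1.65 ± 0.32 in batch 2.

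On the weakly ATP-binding side, Cct3, the gamma subunit, had 9.14, 35.6 and 67.9 CPM in the polysomes of batch 1, against 176, 237 and 280 CPM in total mRNA. Batch 2 polysomes held 48.6, 65.3 and 131 CPM, against 108, 138 and 288 CPM in total mRNA. The groups were separate in batch 1, and in batch 2 they overlapped through the polysomes of ER1 at 131 CPM. The log2 fold was −2.03 ± 0.23, with −2.73 ± 0.25 in batch 1 and −1.13 ± 0.37 in batch 2, and −2.42 without the 3 tumours. In ER3, LR2 and LR3, the batch 2 tumours that remain, the difference was −2.14 to −1.11. A processed pseudogene, Cct3-ps1, shares 91.4% of 1650 aligned bases with its transcript, so some of its reads could have been counted elsewhere.

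Cct6a, the zeta subunit, had 7.39, 31.8 and 47.4 CPM in the polysomes of batch 1, against 162, 218 and 250 CPM in total mRNA. In batch 2 the values were 25.7, 60.5 and 82.4 CPM in polysomes and 76.9, 109 and 191 CPM in total mRNA. The groups were separate in batch 1 and overlapped in batch 2. T15, T16 and T22 had the lowest batch 1 differences, at −4.44, −4.38 and −3.76, while T2 and T3 stood at −1.99 and −2.14. Its log2 fold was −2.21 ± 0.25, with −3.15 ± 0.31 in batch 1 and −1 ± 0.37 in batch 2, and −2.70 without the 3 tumours. The gene overlaps Psph on the opposite strand over 452 bases, and without strand the reads there cannot be told apart.

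Cct7, the eta subunit, was nearest to its total level over all tumours and in batch 1, while in batch 2 Cct2 was nearer. It had 52.7, 88.3 and 323 CPM in the polysomes of batch 1, against 184, 231 and 293 CPM in total mRNA, and 88.1, 170 and 218 CPM in those of batch 2, against 140, 295 and 495 CPM. The groups overlapped in both batches. T22 alone had more in polysomes, with 323 CPM against 293 CPM in total mRNA. The log2 fold was −1.11 ± 0.19, with −1.17 ± 0.23 in batch 1 and −0.94 ± 0.30 in batch 2, and −0.98 without the 3 tumours. Of the 8004 genes 23.5% had a lower mean difference, so Cct7 lay well inside the bulk of genes. Its locus overlaps Pradc1 on the opposite strand over 457 bases, and the processed pseudogene Gm5380 shares 93.5% of 569 bases with it.

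The joined row of Cct8 and Usp16, with the theta subunit, had 48, 76.3 and 114 CPM in the polysomes of batch 1, against 250, 291 and 379 CPM in total mRNA. Batch 2 held 73.9, 98.2 and 147 CPM in polysomes, against 235, 377 and 506 CPM in total mRNA. Neither batch had any overlap between the groups. The log2 fold was −2.02 ± 0.18, with −2.05 ± 0.20 in batch 1 and −1.90 ± 0.32 in batch 2.

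Polysome levels lay below total mRNA levels in every pair of libraries for 5 of the 6 rows in batch 1, all but Cct7, where 21.7% of the 8004 genes did so. In batch 2 this held for Cct4 alone, where 6.38% of genes did, and over all tumours again for Cct4 alone, where 3.72% did. The rule used this contrast as well, and the counts are given as a description.

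**Figure D2:**
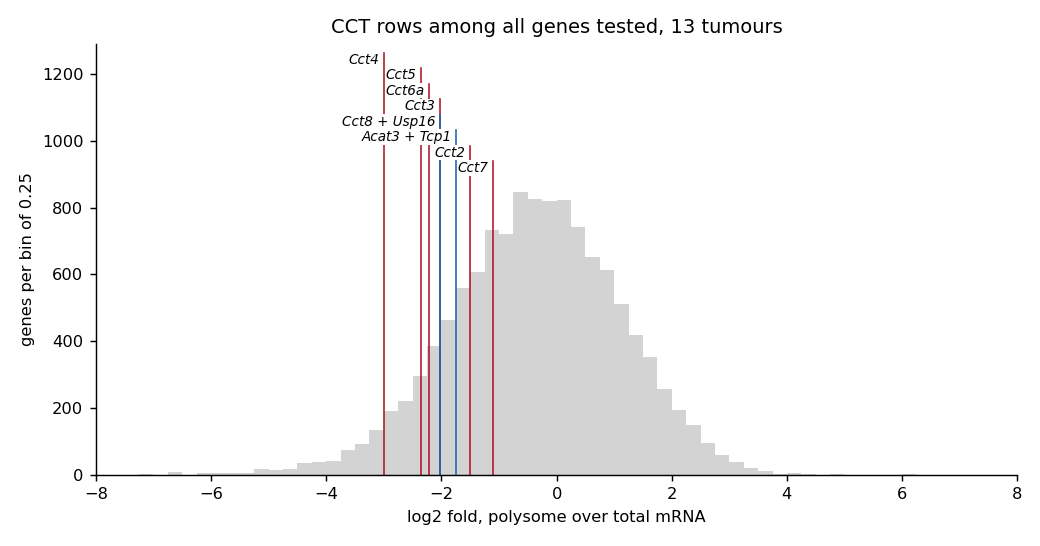
Histogram of the log2 fold of polysome over total mRNA for the 12109 genes tested, with vertical lines at the folds of the 6 CCT rows (red) and the 2 joined rows (blue). The 8 lines stand between −2.99 (Cct4) and −1.11 (Cct7), to the left of the median of all genes at −0.35.

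The depth of the difference varied with the batch for Cct2, Cct3, Cct4 and Cct6a. For Cct5, Cct7 and both joined rows it was alike in both batches. The fitted log2 folds of Cct5 were −2.44 in batch 1 and −2.16 in batch 2, and those of Cct7 −1.17 and −0.94. The rule used these differences by batch, so they are given as a description. The median of the 6 rows within a tumour, as polysome minus total log2 CPM, was −3.76 at its lowest, −2.49 at its median and −2.22 at its highest over the 7 tumours of batch 1. In batch 2 it was −1.55, −1.32 and −0.54 over 6 tumours, so the batches did not overlap. The median of the 8004 genes lay between −0.25 and 0.03 in each tumour of either batch. TMM scaling aligns the centre of all genes across libraries, so this median could hardly move with the batch. Of all genes tested, 32.7% were called lower in polysomes in batch 1 alone and 12.7% in batch 2 alone. By size class, the members' median was −2.30 in large and −2.61 in small tumours of batch 1, and −1.34 in large and −0.85 in small tumours of batch 2. Without ER1, ER2 and LR1 the 3 remaining batch 2 tumours had −1.55 to −1.31, and small batch 2 is then ER3 alone, at −1.31.

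Row by row, the batches separated for Cct2 and Cct4. For these 2 of the 6 rows, and for neither joined row, every batch 1 tumour was below every batch 2 tumour, where 5.18% of the 8004 genes showed this. The rule used this difference by batch, so nothing is read from this share. Cct4 was the lowest row in 6 of the 7 batch 1 tumours, the exception being T15 with Cct6a, and Cct7 was the highest in all 7. In batch 2 Cct5 was lowest in ER1, ER2 and LR1, and Cct3, Cct4 and Cct6a were lowest in ER3, LR2 and LR3 in that order. The distance between the highest and the lowest row of a tumour was 2.24 to 4.16 on the log2 scale in batch 1 and 1.58 to 3.34 in batch 2.

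Other features of the libraries moved with the batch. Polysome libraries of batch 1 had 7034173 to 20699272 counts and those of batch 2 14315435 to 28257436. Lars2, which encodes mitochondrial leucyl-tRNA synthetase, took 4.8% to 25.9% of the counts in batch 1 polysomes and 2.17% to 10.3% in batch 2 polysomes, against 0.433% to 0.902% and 0.00304% to 0.571% in the total mRNA of these batches. The part of depth and of the Lars2 share in the batch difference was not tested.

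**Figure D3:**
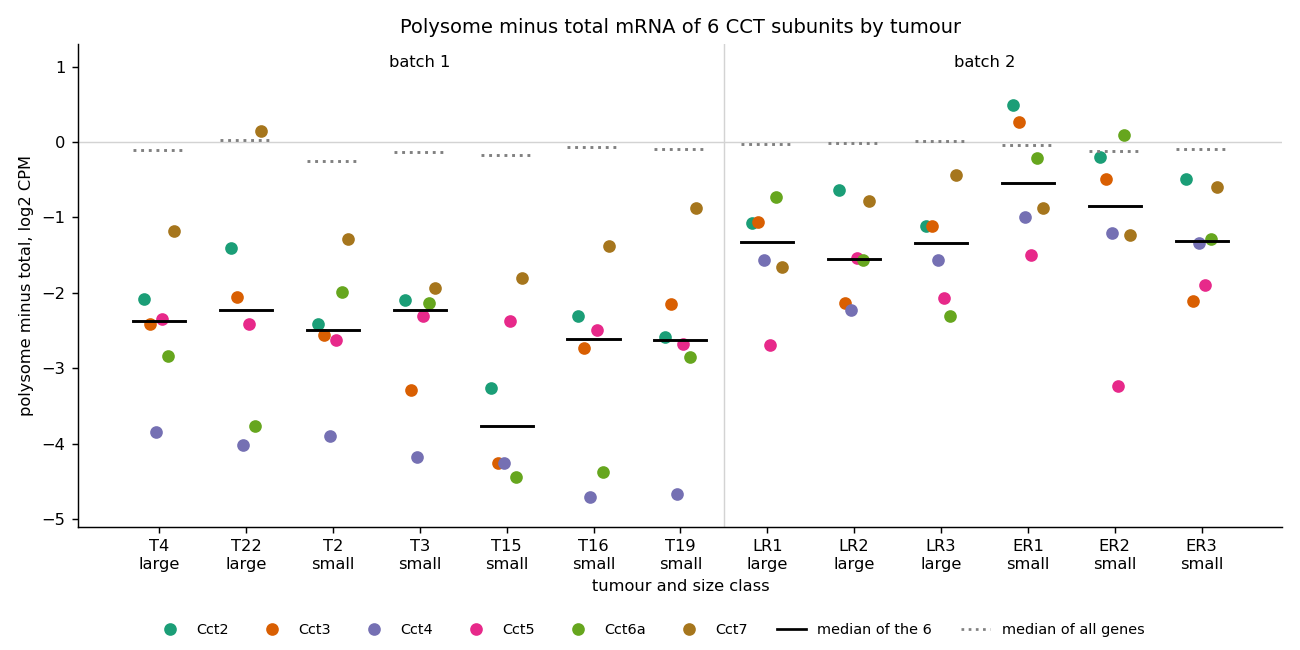
Polysome minus total log2 CPM of the 6 CCT rows (coloured points) in each tumour, with the median of the 6 (black bar) and the median of all genes (dotted grey bar). The black bars lie between −3.76 and −2.22 in batch 1 and between −1.55 and −0.54 in batch 2. The grey bars lie between −0.25 and 0.03, as TMM scaling aligns the centre of all genes across libraries.

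Whether the members changed with tumour size was tested in each RNA source, large over small with batch as a covariate, a contrast the rule did not use. None of the 6 rows or 2 joined rows passed the threshold in polysome mRNA or in total mRNA. Of all genes 0% of 10933 in polysome mRNA and 0% of 11671 in total mRNA passed by edgeR's quasi-likelihood test, with 1362 and 538 genes at an unadjusted p under 0.05. DESeq2 called 147 and 0 genes in these RNA sources, limma voom 0 and 0, and none of these tools called a CCT row.

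In polysome mRNA the log2 folds of large over small tumours ran from −0.40 ± 0.42 for Cct6a to 0.41 ± 0.38 for Cct7 (SE), with adjusted p of 0.698 to 0.994 by edgeR's quasi-likelihood test. Cct7 had 107 and 323 CPM in large tumours of batch 1 and 88.1, 103 and 181 CPM in those of batch 2. Its small tumours had 52.7, 78.1 and 152 CPM in batch 1 (lowest, median and highest of 5) and 158, 211 and 218 CPM in batch 2. The size classes overlapped in batch 1, where T4 at 107 CPM lay within the range of small tumours and T22 at 323 CPM above it, and also in batch 2. In batch 1 alone the fold was 1.26 ± 0.48 with adjusted p = 0.899, and in batch 2 alone −0.70 ± 0.36 with adjusted p = 0.382, by the same edgeR test. Without T22 the fold over both batches was −0.26, so its sign rested on that tumour. Of the 6 rows 5 had a positive fold in batch 1, all but Cct6a, and 0 had one in batch 2. The median fold of all genes tested was −0.06 in batch 1 and −0.14 in batch 2, and their signs were not counted.

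In total mRNA the folds were −0.24 ± 0.27 for Cct7 to 0.36 ± 0.25 for Cct2, with adjusted p of 0.87 to 0.981 by edgeR's quasi-likelihood test. Cct2 averaged 152 ± 50.0 CPM in large tumours and 124 ± 28.3 CPM in small tumours (SD, n = 5 and n = 8), and their ranges, 95.8 to 230 CPM and 78.1 to 166 CPM, overlapped. Cct5 averaged 410 ± 183 CPM in large tumours and 445 ± 230 CPM in small tumours. Without ER1, ER2 and LR1 its fold was 0.02 and that of Cct7 0.13, where over all tumours they were −0.23 and −0.24. The difference of polysome and total mRNA between size classes, which the rule did use, ranged from −0.68 ± 0.48 for Cct6a to 0.38 ± 0.38 for Cct7 over all tumours. It was positive for 5 of the 6 rows in batch 1 and negative for 5 of the 6 in batch 2, Cct5 being 0.03 there. The median of all genes was 0.07 in batch 1 and −0.16 in batch 2.

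**Figure D4:**
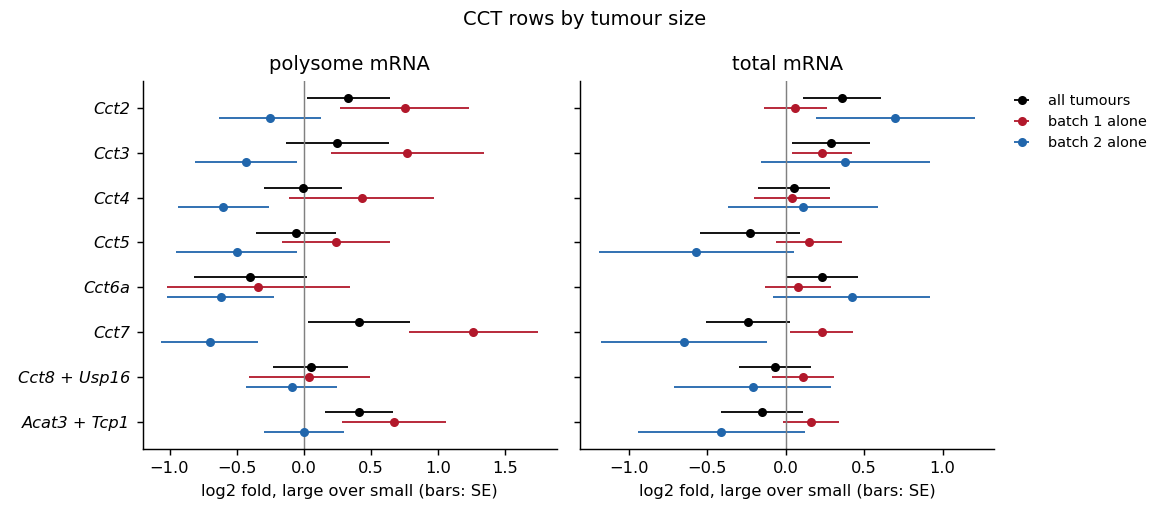
Log2 fold of large over small tumours in polysome mRNA and in total mRNA for each CCT row, with bars of 1 SE, over all tumours (black) and in each batch alone (red and blue). In polysome mRNA the batch 1 points of all rows but Cct6a lie right of 0, that of the Cct8 row by only 0.04. The batch 2 points lie left of 0, apart from the Tcp1 row, which stands at 0. No point passed the threshold.

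The genes whose difference of polysome and total mRNA was most like the members' median over the 13 tumours were Copb2, Sptlc2, Hnrnpk, the joined row of AY074887 and Psma4, and Ssr1. Likeness was measured as the root mean square difference, among 7996 other genes that averaged 10 CPM or more, and these 5 had 0.441, 0.442, 0.457, 0.474 and 0.484 on the log2 scale. Among the members themselves the distance from their own median was 0.523 for Cct3, 0.57 for Cct2, 0.821 for Cct6a, 0.936 for Cct5, 1.22 for Cct7 and 1.26 for Cct4. Copb2, a coat protein gene of Golgi vesicles, averaged −2.66 in batch 1 and −1.39 in batch 2, and Hnrnpk, an RNA-binding protein gene, −2.82 and −1.35.

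The other genes of the folding pathway were tested in the same fit of polysome over total mRNA, where 34.3% of genes were called lower and 22.9% higher. Their lists were drawn up with earlier results of these data known. Prefoldin delivers unfolded actin and tubulin to CCT, and 4 of its 5 rows tested fell in polysomes, with a list median of −1.02 against −0.35 over all genes. Vbp1, a prefoldin subunit gene, had 13.5 ± 8.64 CPM in polysomes and 58.3 ± 18.4 CPM in total mRNA (SD, n = 13 each), a log2 fold of −2.33 ± 0.24 with adjusted p = 8.1e-09 by edgeR's quasi-likelihood test, and it was lower in polysomes in 13 of 13 tumours. Pfdn1 and Pfdn2 fell by 1.02 each, with adjusted p = 0.000184 and 0.000532 by the same edgeR test, and Pfdn6 fell by 0.76 (adjusted p = 0.00418). Pfdn5 stood at −0.43 with adjusted p = 0.087 in edgeR. The mean difference of Vbp1 was −2.90 in batch 1 and −1.63 in batch 2, and that of Pfdn1 −1.78 and −0.06, and Pfdn6 stood at −0.08 and Pfdn5 at 0.90 in batch 2. The median difference of the 5 rows was −1.51 in batch 1 and −0.08 in batch 2, against −0.17 and −0.04 over the 8004 genes, so that the list as a whole did not stand below all genes in batch 2.

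The phosducin-like cofactors Txndc9, Pdcl and Pdcl3, whose proteins bind CCT and modulate its cycle, all 3 fell, with a list median of −2.05 and a median difference of −3.10 in batch 1 and −0.93 in batch 2. Txndc9 had 18.2 ± 14.0 CPM in polysomes and 75.1 ± 15.4 CPM in total mRNA (SD, n = 13 each), with a log2 fold of −2.41 ± 0.23 and adjusted p = 4.28e-09 in edgeR. Pdcl3 fell by 1.91 and Pdcl fell by 2.05, with edgeR adjusted p = 4.72e-08 and 1.6e-06. Mean differences of Txndc9 were −3.12 in batch 1 and −1.53 in batch 2, and those of Pdcl3 −2.72 and −0.93, side by side with −4.22 and −1.49 for Cct4. Of the prefoldin-like genes Pdrg1 fell by 1 (edgeR adjusted p = 0.00141) and fell by 0.63 without ER1, ER2 and LR1, while Uxt and Uri1 stood at −0.10 and 0.03 and were not called.

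The clients did not share a direction. Of the cytoplasmic actins, Actg1 had 2150 ± 765 CPM in polysomes and 3970 ± 1760 CPM in total mRNA (SD, n = 13 each), with a log2 fold of −0.92 ± 0.21 and adjusted p = 0.000561 in edgeR. Actb had 23400 ± 9520 CPM in polysomes and 16600 ± 8150 CPM in total mRNA, with a fold of 0.47 ± 0.19 and adjusted p = 0.0348. The Actb difference averaged 1.05 in batch 1 and −0.15 in batch 2, so it did not hold within batch 2, and its call was lost on leaving out any of T3, T4, T15, T16, T19 and T22 alone (edgeR adjusted p up to 0.117). Of the 8 tubulin rows tested 3 rose and 4 fell. Tubb5 rose by 0.87 ± 0.17, with 1510 ± 588 CPM in polysomes and 816 ± 290 CPM in total mRNA, and was higher in polysomes in 13 of 13 tumours (edgeR adjusted p = 0.000114). Tubb2b fell by 2.79 and Tubb2a fell by 1.80 (edgeR adjusted p = 1.44e-08 and 4.6e-07). Tuba1b and Tuba1c rose by 0.49 and 0.52, Tubb6 fell by 0.51 and Tubg1 fell by 0.71, and Tuba1a stood at 0.45 with adjusted p = 0.0537 in edgeR. Mean differences in batch 1 and batch 2 were 0.75 and 0.26 for Tuba1b and 0.96 and 0.07 for Tuba1c. They were −0.10 and −0.92 for Tubb6 and −0.43 and −1 for Tubg1. Batches were closer for Tubb5, at 0.89 and 0.92, and Tubb2a and Tubb2b were below −1.2 in both. Tubulin genes, and the 2 actin genes, have near-identical copies among which reads can be split, so their single values are uncertain.

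Among 6 other client rows 3 rose and 1 fell. Gnb1, a G protein beta subunit gene whose product CCT folds together with phosducin-like protein, had 936 ± 288 CPM in polysomes and 125 ± 177 CPM in total mRNA, a log2 fold of 3.34 ± 0.23 with adjusted p = 4.9e-11 in edgeR, and it was higher in polysomes in 13 of 13 tumours. Fzr1, an activator of the anaphase-promoting complex, rose by 1.41 ± 0.29 over all tumours and by 2.12 without ER1, ER2 and LR1, with mean differences of 2.54 in batch 1 and 0.11 in batch 2. Gnb2 rose by 1.25, with mean differences of 2.13 in batch 1 and 0.42 in batch 2, and was lower in polysomes in 3 of 13 tumours. Its total mRNA level varied widely, at 264 ± 340 CPM (SD). The deacetylase gene Hdac3 fell by 1.21, and Vhl and Stat3 were not called. Of the tubulin folding cofactors 0 of the 3 tested rows, Tbca, Tbcb and Tbcc, were called, at −0.66, −0.26 and 0.12. Tbca passed without ER1, ER2 and LR1, at −1.04 with edgeR adjusted p = 0.0142. Pfdn6, Tuba1a, Tuba1b, Tuba1c, Tubb6, Tubg1, Pfdn5, Gnb2, Vhl and Stat3 were named after their values were seen, to complete the counts.

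The mitochondrial chaperonin gene Hspd1, whose product is the counterpart of CCT in mitochondria, fell by 2.29 ± 0.21, with 30.4 ± 15 CPM in polysomes and 134 ± 35.8 CPM in total mRNA (edgeR adjusted p = 2e-09), and was lower in 13 of 13 tumours. Its lid gene Hspe1 stood at −0.48 ± 0.23 with adjusted p = 0.0733 in edgeR, with −1.63 in batch 1 and 0.92 in batch 2, and passed without ER1, ER2 and LR1 at −0.91 (adjusted p = 0.00344). Cct6b, a paralog known from testis, was near the floor at 0.127 ± 0.309 CPM in polysomes and 0.642 ± 0.561 CPM in total mRNA, and its fold is not read. The chaperonin-like Bbs10 and Bbs12 were both called lower, at mean levels of at most 1.24 CPM in polysomes and 5.05 CPM in total mRNA. The heat shock factor genes Hsf1 and Hsf2 were at 0.21 and −0.79 and were not called, though Hsf2 passed without ER1 (edgeR adjusted p = 0.0449). Between large and small tumours, 0 of the genes on these lists were called in polysome mRNA or in total mRNA, with lowest adjusted p of 0.134 and 0.865 by edgeR's quasi-likelihood test.

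**Figure D5:**
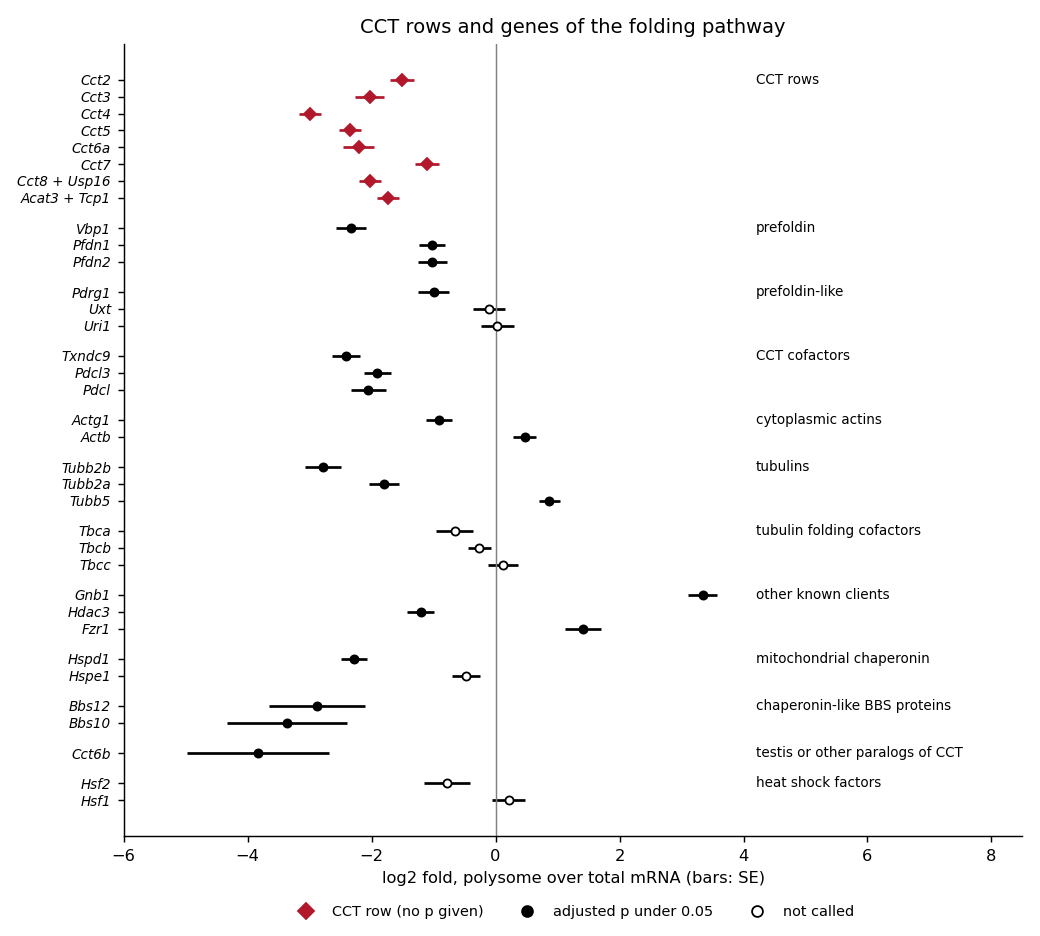
Log2 fold of polysome over total mRNA with bars of 1 SE for the 8 CCT rows (red diamonds, chosen on this contrast and given no p) and for up to 3 genes of each list of the folding pathway (circles, filled where the adjusted p was under 0.05). The genes drawn are those of lowest unadjusted p of their list. The prefoldin subunits drawn, the CCT cofactors and Hspd1 lie left of 0 with the CCT rows, as do genes of other lists such as Tubb2b, Actg1 and Hdac3. Gnb1 lies farthest to the right at 3.34.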

How the data were processed

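Per the labels' protocols, macrophages sorted from 13 mouse mammary tumours were lysed for total mRNA and for a polysome pool, and SmartSeq2 libraries, which do not mark the strand, were made from both. For each library the authors deposited whole-number read counts for 19549 gene rows, of which 830 join the names of overlapping genes, and a second column of log2 values. The deposited log2 values are filled for 10472 rows, equal log2 CPM of the counts plus 0.5 up to a shift of each library (largest deviation 5.1e-14), and were only checked. HISAT, HISAT2, limma and build mm10 are named in the submitters' processing notes, with no role or version. Which tool counted the reads, and with which strand setting, is not given in the sources used here.

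The members and the gene lists were chosen with earlier results of these data known. Low counts were removed with filterByExpr, TMM gave the scaling, and edgeR 4.0.16 (R 4.3.3) ran its quasi-likelihood test in robust mode. Adjusted p follow Benjamini and Hochberg over all genes, with a threshold of 0.05. Polysome over total mRNA had the tumour as a block, and size within an RNA source had batch as a covariate. Tumours were divided at 1000 mg. Both libraries of a tumour come from the same sorted cells per the labels, and their deviations from the group means had a median correlation of 0.25 (lowest 0.0377) within tumours and −0.0169 between them. Levels are TMM-scaled CPM, and a prior count of 1 was added before log2 differences were taken within a tumour. Each tumour was taken as a separate sample, with no animal identifier used, and p-values measure the spread between tumours. Named genes were all members, up to 3 genes of each list with the lowest unadjusted p, and the 5 genes most like the members' median. Gene structures came from the GENCODE annotation of GRCm38, starts from RefSeq on GRCm38.p6, and near copies from BLAST at 90% identity. Alternatives were RLE and upper-quartile scaling, other filters, limma voom 3.58.1, DESeq2 1.42.0, fits with and without blocks or the batch term, and each tumour left out. The script of the fits was tested on simulated data.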

Additional observations from a re-analysis of the deposited data

Results flagged for a closer look

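Cct3 in the polysomes of large tumours stood out through tumour T4 of batch 1, with 47 CPM against 64.5 CPM in the nearest of the other 4 large tumours. The gap took up 0.86 of the range of the group on the log2 scale. It was the single sample to stand apart among 32 groups of 1 CCT row each, where chance marks about 1 in 20. The median polysome minus total difference of the 6 rows in T4 was −2.37, within the range of batch 1.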

How the results depend on the processing

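Across the 25 settings beside the reported one, 50 of 71 results counted as unchanged in each setting run for them. Tested folds had to keep direction and side of the threshold, and counts of genes had to stay of like size. Member values given with no p had to move by less than their SD between tumours. For the members' folds this SD spans both batches, 1.47 for Cct4, so the limit was wide. The median of large batch 1 tumours, with n = 2, could not exceed its limit when a tumour was left out. The members' folds of polysome over total mRNA had also to keep direction. Their differences between size classes could change sign and still count as unchanged. In polysome over total mRNA, where the choice of members fixes the direction, the settings gave folds of −3.43 to −2.84 for Cct4 and −1.20 to −0.98 for Cct7 at the ends of the 6 rows. Without the tumour as a block, 3630 genes were lower and 2745 higher in polysomes, against 4152 and 2768 with it, and of the named genes Actb lost its call (edgeR adjusted p = 0.0748) and Hsf2 gained one (0.0477). Deviations of ER and LR tumours of the same number correlated at −0.02 to 0.367 in total mRNA and −0.0317 to 0.0443 in polysomes. The 2 libraries of a tumour had a median of 0.25 and a lowest value of 0.0377. These ranges overlap, so whether the numbers pair the tumours of batch 2 cannot be told from them.

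Genes called between size classes in polysome mRNA numbered 147 with DESeq2, 3 with no filter on low counts, and 0 to 42 with 1 tumour left out, 42 without T19 and 1 without ER1, against 0 as reported. For the difference of polysome and total mRNA between size classes they numbered 129 with DESeq2 and 8 with no filter, against 0. No CCT row was called between size classes in polysome mRNA or in total mRNA in any setting. For the difference of polysome and total mRNA between size classes, calls of CCT rows were not counted in these settings. The members' median difference in small tumours of batch 2 was −1.31 with ER1, ER2 and LR1 left out, which leaves ER3 alone, against −0.85 as reported.

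The folds that changed sign were uncalled and mostly near 0. In polysome mRNA, large over small, batch 2 alone with no replicate block gave −0.25 for Cct2, −0.43 for Cct3, −0.70 for Cct7 and −0.09 for the Cct8 row, and with the ER and LR number as a block −0.31, −0.32, −0.75 and −0.05. Without the batch term Cct4 stood at 0.11 and Cct5 at 0.04, and without ER1, ER2 and LR1 at 0.29 and 0.14. The Cct8 row stood at −0.05 with upper-quartile scaling and at 0 with RLE scaling, DESeq2, no filter or a mean of at least 10 CPM. With 1 tumour left out the ranges were −0.01 to 0.42 for Cct3, −0.19 to 0.09 for Cct4, −0.21 to 0.10 for Cct5, −0.26 to 0.55 for Cct7 and −0.10 to 0.10 for the Cct8 row. In total mRNA, Cct4 stood at −0.10 and Cct6a at 0 without the batch term, and Cct5 at 0.02 and Cct7 at 0.13 without ER1, ER2 and LR1. With 1 tumour left out, Cct4 ranged from −0.07 to 0.16, Cct5 from −0.39 to 0.01, the Cct8 row from −0.17 to 0.08 and the Tcp1 row from −0.28 to 0.02. In polysome over total mRNA, Uri1 stood at −0.04 without the block and ranged from −0.12 to 0.15 with 1 tumour left out, and Uxt from −0.20 to 0.05. Hspe1 passed the threshold without any of ER1, LR1 or LR3 (edgeR adjusted p = 0.0284, 0.0254 and 0.0459), and Tbca without any of T19, ER1, LR1 or LR3 (0.0313, 0.0392, 0.0354 and 0.0442). Hsf2 passed it without ER1 (0.0449) and with DESeq2 (adjusted p = 0.0249). The difference of polysome and total mRNA between size classes also took both signs in some rows. With 1 tumour left out it ranged from −0.45 to 0.10 for Cct2 and from −0.26 to 0.31 for Cct3. For Cct4 it ranged from −0.32 to 0.06 and for Cct5 from −0.11 to 0.23. Cct6a, Cct7 and both joined rows kept their sign. The cause of these changes was not tested.

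Depth limits the lowest polysome values, which rest on 55 counts at the least. Counts cover sampling error only and SmartSeq2 reads carry no molecular identifiers. Levels are shares of a library, so a shift of all mRNA between fractions would not be seen.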

Other observations

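Several genes of the folding pathway were counted only in rows joined with an overlapping gene, and their values belong to both names. In polysome over total mRNA the row of Pfdn4 with Cyp24a1 had a log2 fold of −2.00 ± 0.42 (SE) and that of Tbce with B3galnt2 −1.78 ± 0.30. The row of Tbcd with B3gntl1 stood at 1.17 ± 0.20 and that of Mlst8 with Bricd5 at 0.66 ± 0.25. The row of Mkks, a chaperonin-like gene, with Slx4ip stood at −1.03 ± 0.22, at 15.9 ± 5.80 CPM in polysomes and 29.9 ± 4.40 CPM in total mRNA (SD, n = 13 each).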
